A study of Mus musculus with 4 samples.

Results

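Scx, Mkx, Tnmd, Thbs4, Kera and Chodl are 6 genes of the tendon lineage, matched by symbol among the 27998 genes counted in single-cell RNA sequencing libraries of mouse hindlimb tissue. All 6 were present in the count matrices. The 4 libraries came from day 7 after a 30% body-surface burn on the back combined with cutting of the left Achilles tendon. The groups were the injured left limb of Ddr2 slie/slie mice (slie/slie injured), their right limb (slie/slie uninjured), the injured left limb of littermate controls (control injured) and the right limb of those controls (control uninjured). The slie allele is a spontaneous deletion in Ddr2, a collagen receptor, carried throughout the body. Every mouse had the burn, so the uninjured limb is the contralateral limb of a burned animal. Each library pooled tissue of 2 mice, so every group had 1 library, there is no replicate error and no test between groups was possible. The sample titles mark the littermate controls as WT, and the sources used here do not give the age of the mice.

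Scleraxis (Scx) and Mohawk (Mkx) are transcription factors of tendon cells. Scx marks tendon progenitors and promotes transcription of Tnmd, whose product tenomodulin is a membrane glycoprotein of maturing tendon cells. Thbs4 encodes thrombospondin 4, a matrix glycoprotein of tendon and muscle attachment, and Kera encodes keratocan, a small leucine-rich proteoglycan of cornea and tendon. Chodl encodes chondrolectin, a C-type lectin membrane protein that other tissues, among them motor neurons and muscle precursors, also make.

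On mm10, with GENCODE coordinates, Scx lies at 15:76457452-76459458 on the plus strand, inside the span of Bop1 on the opposite strand. Bop1 had 59, 24, 0 and 19 unique molecular identifiers (UMIs, one per counted transcript molecule) in control injured, slie/slie injured, control uninjured and slie/slie uninjured, and the sources used here do not give the strand setting of the counting. Tnmd lies at X:133850980-133865577 on the plus strand. Thbs4 lies at 13:92751590-92794818 on the minus strand, Kera at 10:97606879-97613692 and Chodl at 16:78930948-78951733, both on the plus strand.

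Scx is a basic helix-loop-helix factor, a class that binds the E-box, written CANNTG. The bases before the start of 3 members are shown because Tnmd and Thbs4 were the pair most often seen in 1 cell and because Chodl came mostly from 1 cell that also held Scx. They are from RefSeq (GRCm38.p6), 5′ to 3′ on the gene's strand, with each CANNTG in capitals. The motif reads the same on both strands. The windows are chrX:133850758-133850979 (plus strand, 222 bases), chr13:92794819-92795068 (minus strand, 250 bases) and chr16:78930698-78930947 (plus strand, 250 bases).
Tnmd: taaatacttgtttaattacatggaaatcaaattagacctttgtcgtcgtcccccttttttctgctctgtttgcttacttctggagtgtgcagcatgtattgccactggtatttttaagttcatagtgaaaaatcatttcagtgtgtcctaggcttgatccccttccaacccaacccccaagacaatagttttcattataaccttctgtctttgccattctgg
Thbs4: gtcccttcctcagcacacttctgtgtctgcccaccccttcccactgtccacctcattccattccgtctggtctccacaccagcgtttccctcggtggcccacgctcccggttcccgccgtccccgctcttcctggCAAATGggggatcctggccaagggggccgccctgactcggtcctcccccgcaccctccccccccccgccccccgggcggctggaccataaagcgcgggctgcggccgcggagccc
Chodl: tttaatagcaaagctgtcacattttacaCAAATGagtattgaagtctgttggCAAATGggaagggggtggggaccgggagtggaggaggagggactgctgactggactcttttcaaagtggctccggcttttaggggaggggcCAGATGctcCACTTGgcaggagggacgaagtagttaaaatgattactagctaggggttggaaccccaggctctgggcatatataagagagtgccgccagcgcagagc
The Tnmd window held 0 matches, the Thbs4 window 1 and the Chodl window 4. Kera in slie/slie injured also came mostly from 1 cell that held Scx. Its window, 10:97606955-97607204, held 0 matches, but lies inside the Kera span given above and is not printed. Of 32851 mouse windows of 250 bases before a gene start, 66.2% held at least 1 match and 12.2% held 3 or more, so a single match is common. Absence of these letters from a window says nothing about binding elsewhere.

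The libraries held 842 (control injured), 375 (slie/slie injured), 1075 (control uninjured) and 289 (slie/slie uninjured) barcodes, with 4515174, 1493147, 579790 and 1540053 UMIs. The control uninjured library stands apart: 991 of its barcodes had under 200 genes, and only 60 cells passed the filter (200 genes or more, mitochondrial UMIs no more than 20%). The other libraries kept 751 (control injured), 246 (slie/slie injured) and 184 cells (slie/slie uninjured). Its members' values are therefore given over all barcodes and are thin within cell types. Hemoglobin took 15.5% to 38.2% of the UMIs. A single barcode sequence was shared between libraries (control injured and control uninjured), and it held 0 UMIs of the 6 genes. Ddr2 had 116, 0, 5 and 2 UMIs in control injured, slie/slie injured, control uninjured and slie/slie uninjured. Whether the counted end of the transcript lies inside the deletion was not checked.

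Levels are given as UMIs per 1000000 UMIs of the library (CPM) over all barcodes, with 95% Poisson intervals that cover counting error only. Such a level cannot tell fewer cells of a type from less RNA per cell. The 6 genes together had 488 UMIs in control injured, 406 in slie/slie injured, 71 in control uninjured and 393 in slie/slie uninjured. These were 108 (98.7 to 118), 272 (246 to 300), 122 (95.6 to 154) and 255 CPM (231 to 282). The 2 slie/slie libraries were the higher ones by this sum, with overlapping intervals, and the 2 control libraries were the lower ones, also with overlapping intervals. Thbs4 and Tnmd supplied most of the UMIs in each library.

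Among the transcription factors, Scx had 89 UMIs in 29 cells of control injured, 38 in 12 cells of slie/slie injured, 2 in 2 barcodes of control uninjured and 28 in 5 cells of slie/slie uninjured. The Scx levels were 19.7 (15.8 to 24.3), 25.4 (18.0 to 34.9), 3.45 (0.418 to 12.5) and 18.2 CPM (12.1 to 26.3) in that order of libraries. Control uninjured was the lowest, its interval meeting only that of slie/slie uninjured, and the other 3 libraries could not be ordered. Mkx, at 18:6934518-7004780 on the minus strand, had 11, 5, 1 and 6 UMIs in the same order. Its intervals overlapped in all 4 libraries, so no order of Mkx was detectable at this depth. All 5 Mkx UMIs of slie/slie injured came from 1 cell, while the 11 of control injured came from 10 cells.

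Of the membrane proteins, Tnmd had 110 UMIs in 33 cells of control injured, 55 in 12 cells of slie/slie injured, 25 in 19 barcodes of control uninjured and 176 in 22 cells of slie/slie uninjured. The Tnmd levels were 24.4 (20.0 to 29.4), 36.8 (27.7 to 47.9), 43.1 (27.9 to 63.7) and 114 CPM (98.0 to 132). Tnmd was thus highest in slie/slie uninjured, with no overlap with the other 3, and the other neighbours in the order overlapped. Chodl had 2 UMIs in control injured, 0 in slie/slie injured, 1 in control uninjured and 59 in slie/slie uninjured. The 0 allows up to 3 UMIs in that library. Of the 59 Chodl UMIs, 52 sat in 1 cell, so the library's level of 38.3 CPM describes that cell more than the tissue.

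Of the matrix genes, Thbs4 had 271 UMIs in 48 cells of control injured, 280 in 11 cells of slie/slie injured, 37 in 21 barcodes of control uninjured and 115 in 19 cells of slie/slie uninjured. The Thbs4 levels were 60.0 (53.1 to 67.6), 188 (166 to 211), 63.8 (44.9 to 88.0) and 74.7 CPM (61.7 to 89.6). Slie/slie injured was the highest without overlap, and the other 3 overlapped. A single slie/slie injured cell held 201 of the 280 Thbs4 UMIs. Kera had 5 UMIs in 2 cells, 28 in 2 cells, 5 in 3 barcodes and 9 in 2 cells, in the same order of libraries. The Kera levels were 1.11 (0.36 to 2.58), 18.8 (12.5 to 27.1), 8.62 (2.80 to 20.1) and 5.84 CPM (2.67 to 11.1), so control injured was the lowest without overlap. Of the 28 Kera UMIs in slie/slie injured, 27 were in the cell that held 201 of Thbs4.

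**Figure D1:**
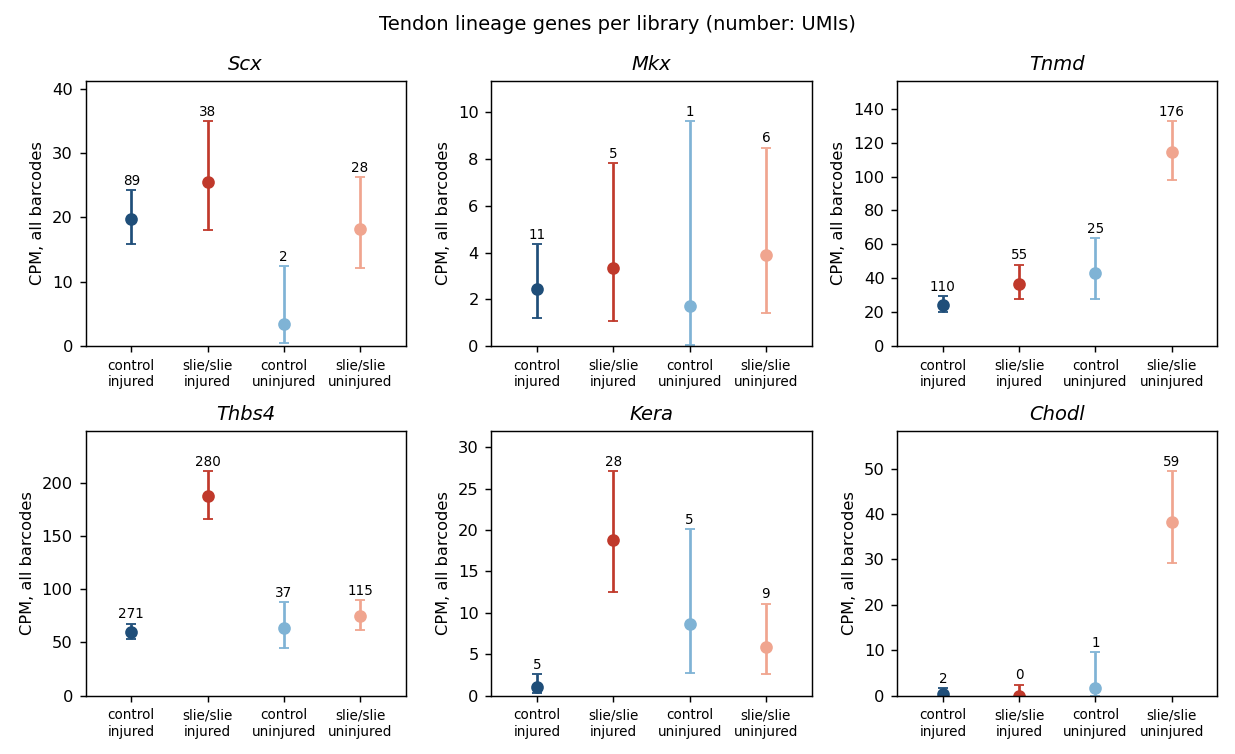
Level of each gene in each library over all barcodes (y axis, CPM, each panel on its own scale), with 95% Poisson intervals as bars and the UMI count printed above each point. Tnmd and Chodl were highest in slie/slie uninjured (176 and 59 UMIs), and Thbs4 and Kera in slie/slie injured (280 and 28 UMIs).

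Nearly all of the signal in injured limbs was in fibroblasts. These are the cells of 5 clusters with collagen and proteoglycan markers (clusters 0, 2, 6, 7 and 11 of 17), here called fibroblast-like, and the clusters were formed without the 6 genes. In control injured, fibroblast-like cells held 476 of the 487 member UMIs of filtered cells (97.7%). The count was 401 of 402 (99.8%) in slie/slie injured. They held 35.6% and 40.2% of all UMIs of filtered cells in these libraries. In slie/slie uninjured they held 63.5% of the member UMIs and 49.5% of all UMIs. In control uninjured only 5 fibroblast-like cells were left, with 15 Thbs4 UMIs, 1 Tnmd UMI and none of the other 4 genes. Of the 71 member UMIs of that library, 43 were in barcodes outside the filter, which also held 58.1% of its UMIs.

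A minority of fibroblast-like cells held a UMI of any of the 6 genes. The share was 84 of 308 in control injured (27.3%, exact binomial 95% interval 22.4% to 32.6%), 21 of 112 in slie/slie injured (18.8%, 12.0% to 27.2%) and 26 of 77 in slie/slie uninjured (33.8%, 23.4% to 45.4%). In a class that should lack the genes, neutrophil-like cells of control injured, 3 of 152 cells had a UMI (1.97%, 0.409% to 5.66%), at a median of 1213 UMIs per cell against 1371 in the fibroblast-like cells. In slie/slie injured, 1 of 44 neutrophil-like cells had one (2.27%, 0.058% to 12.0%), so there the intervals of the fibroblast-like share and of the background just meet. The slie/slie fibroblast-like cells had median UMIs of 750 (injured) and 5910 (uninjured), so the shares are not depth matched. With each cell thinned to 500 UMIs, 30 of 308 control injured (9.74%), 8 of 79 slie/slie injured (10.1%) and 7 of 77 slie/slie uninjured (9.09%) fibroblast-like cells had a UMI. This left out 33 shallower slie/slie injured cells. These thinned shares lay within each other's intervals.

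Cells that held 2 or more of the 6 genes were rarer. They numbered 41 of 1241 filtered cells, of which 38 were fibroblast-like, and 10 held 3 or more. Among fibroblast-like cells the counts were 24 of 308 in control injured (7.79%, 5.06% to 11.4%), 8 of 112 in slie/slie injured (7.14%, 3.13% to 13.6%), 1 of 5 in control uninjured and 5 of 77 in slie/slie uninjured (6.49%, 2.14% to 14.5%). Scrublet called 2 of the 41 cells doublets (2 cells under 1 barcode). They were the 1 control uninjured cell and 1 of the 5 slie/slie uninjured cells, the deepest of its library. The shares of the 3 larger groups overlapped widely. In control injured these 24 cells held 323 of the 476 fibroblast-like member UMIs (67.9%) with 27.2% of that class's UMIs. In slie/slie injured the 8 cells held 322 of 401 (80.3%) with 47.0% of the UMIs, and in slie/slie uninjured the 5 cells held 140 of 238 (58.8%) with 15.5% of the UMIs.

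Cells with 2 or more members were deep. Their median was 11561.5 UMIs in control injured, against 2571 for fibroblast-like cells with 1 member and 1107.5 for those with none. In slie/slie injured the medians were 7563, 1607 and 647 for the same classes. In slie/slie uninjured they were 7940, 5951 and 5346, a smaller range. Of the 41 filtered cells, 20 had 10000 UMIs or more. Thinned to 500 UMIs, 5 of 308 cells of the control injured limb (1.62%, 0.529% to 3.75%) still held 2 or more members, as did 1 of 79 of the slie/slie injured limb (1.27%, 0.032% to 6.85%). Thinned to 2000 UMIs, which leaves out 186 and 82 shallower cells, the shares were 4 of 122 (3.28%, 0.900% to 8.18%) and 5 of 30 (16.7%, 5.64% to 34.7%), with overlapping intervals. The direction between the genotypes changed with the depth of thinning, so no order was read from it.

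**Figure D2:**
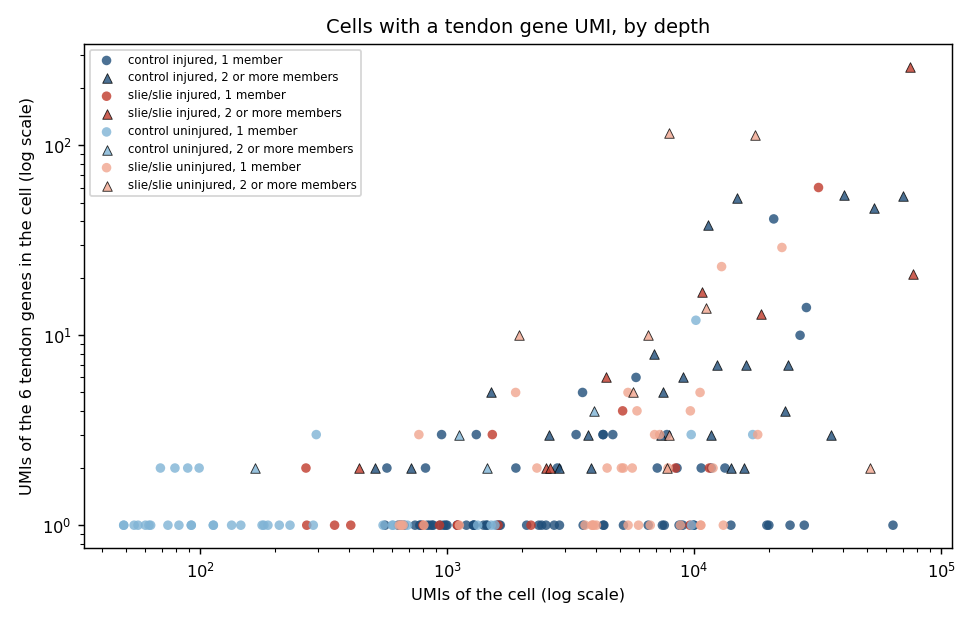
UMIs of the 6 genes in each barcode with at least 1 (y axis, log scale) against all UMIs of that barcode (x axis, log scale), coloured by library, with triangles for 2 or more members. Triangles sit mostly to the right: 20 of the 41 that passed the filter had 10000 UMIs or more, and the highest point is the slie/slie injured cell with 259 member UMIs.

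Tnmd with Thbs4 was the pair most often found together, in 21 filtered cells, followed by Scx with Thbs4 in 18 and Scx with Tnmd in 12. Mkx was seen with Thbs4 in 5 cells, with Tnmd in 4 and with Scx in 3. Kera and Chodl were never seen in the same cell. In control injured, Scx met Thbs4 in 11 cells and Tnmd in only 3, while in slie/slie injured Scx met Tnmd in 6 and Thbs4 in 4. Genes with more UMIs meet more often whatever their relation, so these counts are a description.

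The combinations differed from cell to cell. In control injured, a cell of 53613 UMIs held 37 of the 89 Scx UMIs with 2 of Tnmd and 8 of Thbs4. A cell of 14955 UMIs held no Scx, 33 Tnmd and 19 Thbs4, and the cell with most member UMIs (40312 UMIs in all) held 1 Scx, 11 Tnmd and 43 Thbs4. High Scx and high Tnmd were thus in separate cells of that library. A cell of 70055 UMIs held 49 Thbs4 and 5 Scx together with 1270 UMIs of Prg4, the lubricin gene of joint and tendon surfaces. Another cell, of 20994 UMIs, had 41 Thbs4 and no other member, with 113 UMIs of Prg4.

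In slie/slie injured, 1 fibroblast-like cell of 74520 UMIs, the second deepest of the library, held 18 Scx, 5 Mkx, 8 Tnmd, 201 Thbs4 and 27 Kera UMIs. It carried 4.99% of the library's UMIs and 63.8% of its member UMIs. It also held 14 UMIs of Fmod, the tendon proteoglycan fibromodulin, and 95 of Prg4. A cell of 31875 UMIs had 60 Thbs4 with no other member and 471 UMIs of decorin (Dcn). The deepest cell of the library (76827 UMIs) had 3 Scx, 18 Tnmd, no Thbs4 and 2108 UMIs of Col1a1.

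In slie/slie uninjured, a fibroblast-like cell of only 7907 UMIs held 6 Scx, 1 Mkx, 29 Tnmd, 28 Thbs4 and 52 Chodl UMIs, with 35 of Fmod. A second cell, of 17603 UMIs, held 19 Scx, 45 Tnmd, 43 Thbs4 and 6 Kera with 65 Fmod and 16 UMIs of Comp, cartilage oligomeric matrix protein. That cell fell in an endothelial-like cluster and also held 5 Pecam1, 8 Cdh5, 14 Egfl7 and 9 Cldn5 UMIs, all endothelial genes. It was not called a doublet by Scrublet, and the part of a second cell in its counts was not tested. Neither of these cells was among the 3 deepest of its library. Cells of 22666 and 12912 UMIs had 29 and 23 Tnmd UMIs with no other member, 477 and 300 of Dcn and none of Fmod. These 4 cells held 126 of the 176 Tnmd UMIs of the library. Other cells lay between them, such as one of 11150 UMIs with 11 Tnmd, 3 Thbs4 and 269 Dcn UMIs and none of Fmod.

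**Figure D3:**
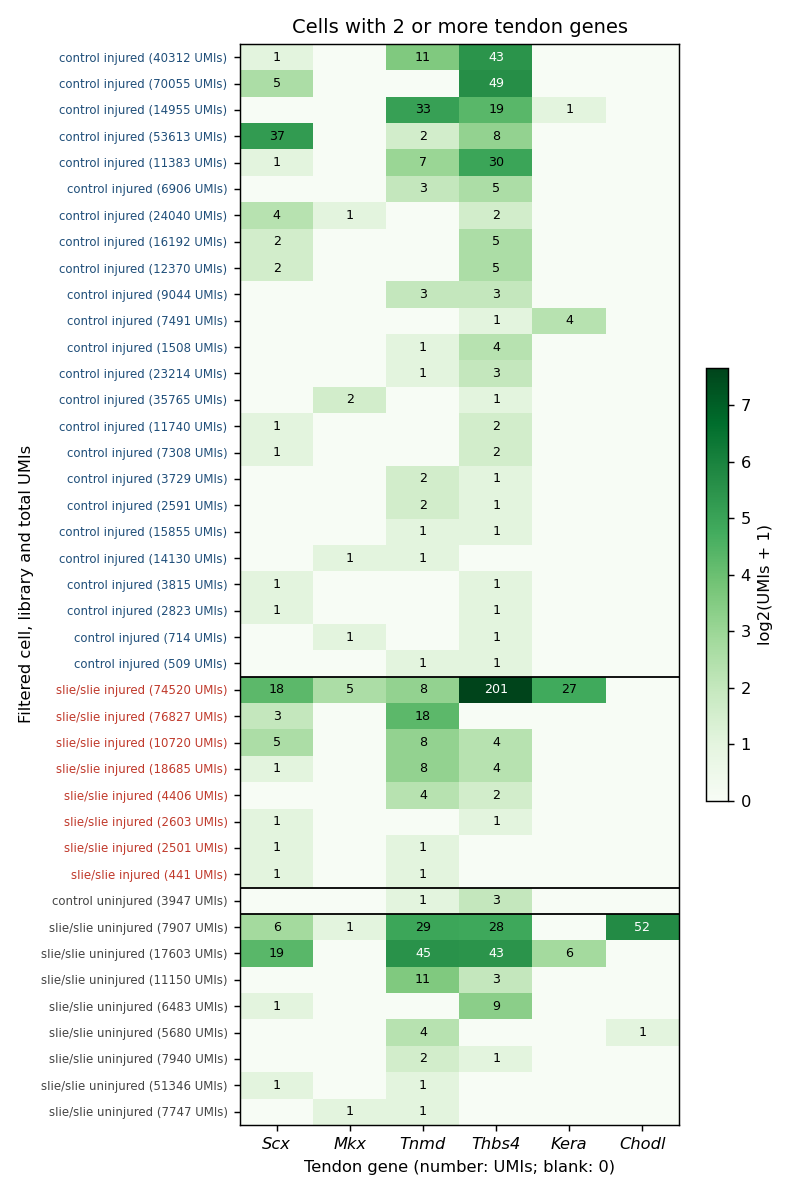
UMIs of each gene (columns, number in the cell, colour on a log2(UMIs + 1) scale) in the 41 filtered cells with 2 or more members (rows, by library, with the cell's total UMIs). Most rows hold Tnmd or Thbs4 with few UMIs, and a few rows, among them the slie/slie injured cell with 201 Thbs4 UMIs, hold most of the counts.

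A few cells carried the signal. The single cell with most member UMIs held 11.3% of them in control injured, 63.8% in slie/slie injured, 16.9% in control uninjured and 29.5% in slie/slie uninjured. The top 3 cells held 33.2%, 83.7%, 26.8% and 65.6%. To reach 50% of the member UMIs took 5 cells in control injured, 1 in slie/slie injured, 10 barcodes in control uninjured and 2 cells in slie/slie uninjured. The signal was spread over 95, 25, 43 and 44 barcodes in all.

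**Figure D4:**
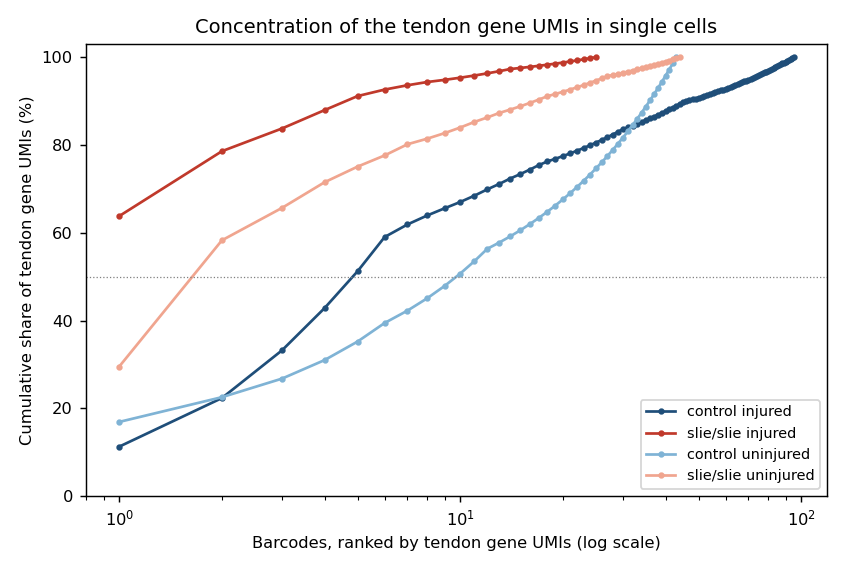
Cumulative share of the UMIs of the 6 genes (y axis, percent) over barcodes ranked by these UMIs (x axis, log scale), 1 line per library, with a dotted line at 50%. The slie/slie injured line starts at 63.8% with its first cell, and control injured at 11.3%.

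Ratios between libraries were taken as log2 CPM ratios with 1 count added, with conditional binomial 95% intervals for counting error only. A gene counts as measured with 20 or more UMIs over both libraries, and is called higher or lower when the ratio reaches 1.5-fold. Comparisons below that share a library are not independent of each other. In injured limbs the 6 genes together were higher in slie/slie than in control, by 1.33 on the log2 scale (1.14 to 1.52), or 2.52-fold. Of the 4 measured members, Thbs4 (1.64, 1.40 to 1.89), Kera (3.87, 2.58 to 5.43) and Tnmd (0.61, 0.12 to 1.09) were higher by that limit and Scx was not (0.39, -0.19 to 0.95). Of all genes measured, 5.90% were higher and 30.0% lower, and the median was -0.34 against 1.13 for the 4 members. Scaling by hemoglobin-free totals, TMM or size factors raises every ratio here by 0.33 to 0.37, which brings Scx past 1.5-fold.

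This difference rested on single cells. Without the cell with most member UMIs in each library the sum gave 0.11 (-0.17 to 0.38), and without the 3 deepest cells of each library -0.030 (-0.33 to 0.26). Kera then gave 0.07 and 0.16, from 1 UMI against 5. Thbs4 gave 0.14 and 0.26, Scx -0.43 and -0.50, and Tnmd 0.60 and -0.13. Of the 4 genes that were measured with all cells, 0 were higher without the 3 deepest cells and 1, Tnmd, was higher without the top cell. The share of all genes was not taken in these settings.

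Within fibroblast-like cells of the injured limbs the sum was 332 CPM in control (303 to 363) and 988 CPM in slie/slie (894 to 1090), a log2 ratio of 1.57 (1.38 to 1.77). All 4 measured members were higher, beside 13.5% of all genes measured: Scx by 0.65, Tnmd by 0.85, Thbs4 by 1.88 and Kera by 4.04. Without the top cell of each library the sum gave 0.51 (0.23 to 0.79), with Thbs4 at 0.54 and Scx at 0.02. Without the 3 deepest fibroblast-like cells it gave -0.11 (-0.52 to 0.28), with Thbs4 at -1.06 (-1.85 to -0.37) and Scx at 1.13 (0.26 to 1.95). Of the 4 measured genes only Tnmd and Scx stayed above 0 in both. Tnmd gave 1.03 (0.49 to 1.55) and 0.60 (-0.062 to 1.21), and the 0.02 of Scx had an interval of -0.74 to 0.72. With each cell given the same weight the log2 ratio of the sum fell from 1.57 to 0.01. Cluster 0 held the largest share of these cells in both libraries (123 of 308 and 57 of 112), while cluster 2 held 90 cells in control and 17 in slie/slie. Cluster 2 held 375 of the 476 control member UMIs. There the sum was lower in slie/slie, at 271 CPM (199 to 360) against 446 (402 to 493). It was higher in cluster 0 (228 against 170, intervals overlapping) and in cluster 6 (2068 against 183). In cluster 6, 259 of the 278 slie/slie UMIs were in 1 cell. Cluster 7 had 60 UMIs in 1 cell against 0 in 1 cell, and cluster 11 had 433 CPM against 169, from 2 and 4 UMIs. The part of cluster makeup was not tested.

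**Figure D5:**
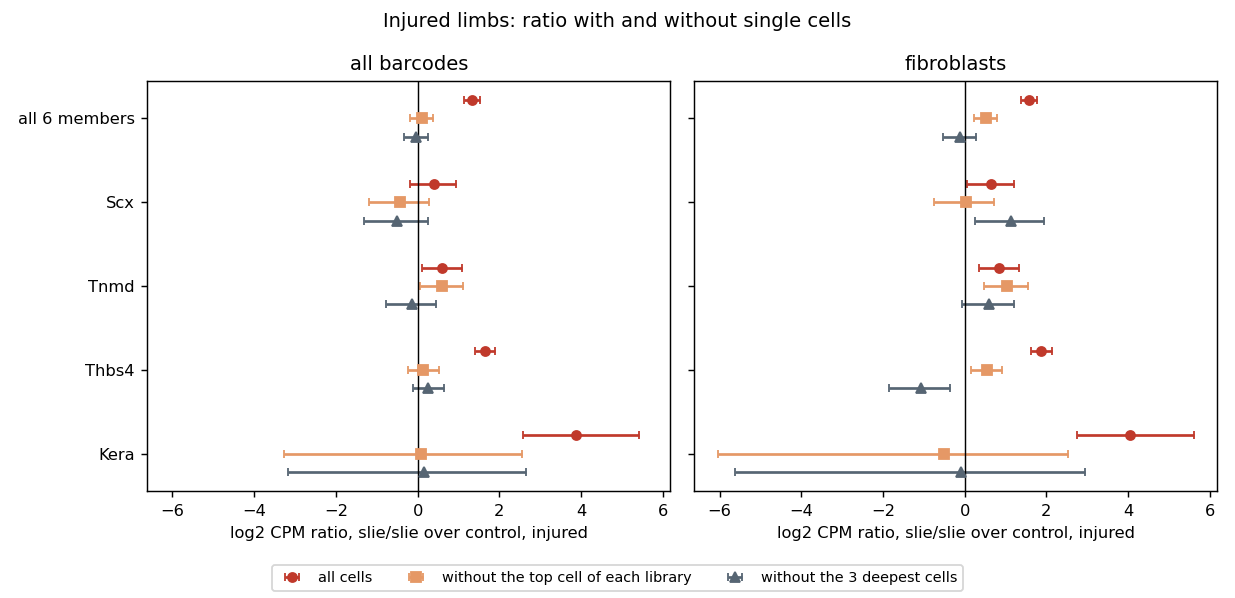
Log2 CPM ratio of slie/slie injured over control injured (x axis) for the 6 genes together and for the 4 measured members (y axis), over all barcodes (left) and fibroblast-like cells (right), with 95% counting intervals. The sum moved from 1.33 with all cells to 0.11 without the top cell of each library and -0.03 without the 3 deepest cells.

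In control mice the log2 ratio of injured over uninjured for the sum was -0.20 (-0.56 to 0.18). It passed 1.5-fold lower without hemoglobin in the totals (-0.65), with TMM (-0.77) and with size factors (-0.85), each with an interval below 0. With barcodes weighted equally the sum gave -1.82, but single UMIs in shallow barcodes then weigh heavily. The control uninjured barcodes had a median of 101 UMIs, and 991 of 1075 had under 200 genes. Scx was higher in the injured limb by 1.95 (0.35 to 4.25), from 89 UMIs against 2. Tnmd was lower (-0.87, -1.49 to -0.19), and Thbs4 gave -0.12 (-0.62 to 0.41), or 0.17 without the top cell of each library. Of the 3 measured members 1 was higher and 1 lower, where 52.2% of all genes measured were higher and 11.2% lower and the median gene stood at 0.63. The control uninjured library had few cells, and the libraries also differed in tissue markers. In control uninjured the myofibre markers (10 genes) summed to 343 CPM, against 8.86 in control injured. The adipocyte markers (5 genes) summed to 943 against 2.88. The part of tissue makeup in these ratios was not tested. Scaling by hemoglobin-free totals, TMM or size factors lowers every ratio of this comparison by 0.45 to 0.65, under which Scx stays above 0 with an interval that includes 0, and Thbs4 passes 1.5-fold lower with TMM and size factors. Of all genes, 29.6% were then higher and 24.5% lower with TMM.

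In slie/slie mice the sum of injured over uninjured was 0.09 (-0.11 to 0.29), but -0.80 (-1.10 to -0.51) without the top cell of each library and -1.35 (-1.65 to -1.05) without the 3 deepest cells. Tnmd was lower in the injured limb (-1.62, -2.08 to -1.17), and stayed so without the top cell of each library (-1.51) and without the 3 deepest cells (-2.13). Chodl, with 0 UMIs against 59, was at least 19.1-fold lower when the 0 is set to 3 counts, and the counting interval of its ratio reaches down to 10.0-fold. Without the top cell it was 0 against 7 UMIs, too few to be measured, with an interval that includes 0 (-8.36 to 0.01). Thbs4 (1.32, 1.00 to 1.65) and Kera (1.58, 0.50 to 2.78) were higher, and turned to -0.37 and -2.16 without the 3 deepest cells. Scx gave 0.47 (-0.26 to 1.22), and -0.47 without the 3 deepest cells. Of the 5 measured members 2 were higher and 2 lower, with 16.8% and 26.7% of all genes measured. The other scalings raise every ratio here by 0.13 to 0.18, which brings Scx past 1.5-fold with an interval that still includes 0. The median was 0.47 for the members and -0.13 for all genes. Myofibre markers summed to 988 CPM in slie/slie uninjured and 3.35 in slie/slie injured, and their part in the result was not tested.

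Between the uninjured limbs the sum was higher in slie/slie by 1.04 (0.68 to 1.43). Tnmd (1.36, 0.76 to 2.01), Scx (1.86, 0.17 to 4.22, from 28 UMIs against 2) and Chodl (3.50, 1.58 to 6.58) were higher among 4 measured members, where 41.2% of all genes measured were higher and 6.42% lower. Thbs4 gave 0.20 (-0.34 to 0.77), and was below 0 when scaled by hemoglobin-free totals, TMM or size factors, which lower every ratio here by 0.29 to 0.45. Without the top cell of each library Tnmd gave 1.08 (0.47 to 1.74). Scx gave 1.51 with an interval that includes 0 (-0.22 to 3.89), as it also does without the 3 deepest cells and under each other scaling. Chodl gave 0.57 (-1.75 to 3.85), from 7 UMIs against 1, and was no longer measured or higher. Leaving out the top cell or the 3 deepest cells keeps the endothelial-like cell of 17603 UMIs in slie/slie uninjured. That cell held 45 of the 176 Tnmd and 19 of the 28 Scx UMIs of its library, and ratios without it were not taken. The control library of this comparison had 60 filtered cells, of which 5 were fibroblast-like against 77 in slie/slie uninjured, and the part of this in the ratios was not tested.

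Outside fibroblast-like cells the genes were sparse, with pericyte or smooth muscle-like cells as the main exception. In slie/slie uninjured, 5 of the 6 Mkx UMIs were in 4 of 20 such cells (20.0%, 5.73% to 43.7%), and Tnmd had 8 UMIs in 5 of them. In control uninjured, Tnmd had 8 UMIs in 4 of 13 such cells (30.8%, 9.09% to 61.4%). In control injured it had 4 UMIs in 3 of 51 such cells (5.88%, 1.23% to 16.2%). The uninjured cells were of different depth, with medians of 5319 and 1507 UMIs against 2420 in control injured, and the intervals overlap. A cell of 6483 UMIs in this class held 9 Thbs4 and 16 Fmod UMIs with 7 of Pecam1 and 11 of Cdh5. In the endothelial-like class, 113 of the 114 member UMIs of slie/slie uninjured belonged to the single cell described above.

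Cells under 0.5% mitochondrial UMIs held a smaller share of the summed signal than of all UMIs. In the injured limbs they had 7.19% (control) and 7.96% (slie/slie) of the member UMIs, and 27.4% and 30.6% of all UMIs of filtered cells. Without the top cell of each library the member shares were 8.10% (control) and 22.4% (slie/slie). The top cell of slie/slie injured, with 259 member UMIs, had 0.506% mitochondrial UMIs, just above the limit. The slie/slie share with all cells therefore depends on where the limit is set. Scx in slie/slie injured had a larger share than that of all UMIs, with 16 of 38 UMIs (42.1%) in 9 of the 12 cells that had it. Such cells lie in several classes, and the part of cell quality in this was not tested. Chondrocyte markers (9 genes), which mark the cartilage that can form in injured tendon, summed in fibroblast-like cells to 327 CPM (control injured) and 172 CPM (slie/slie injured). Matn1 was at 0 in both.

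A wider list of 33 genes of tendon matrix and tendon signalling was mostly not higher in slie/slie injured limbs. Of 31 measured, 2 were higher (6.45%) and 16 lower (51.6%), beside 5.90% and 30.0% of all genes (median -0.67, against -0.34). With TMM 3 were higher and 8 lower (9.68% and 25.8%), beside 12.7% and 14.1% of all genes. Without the 3 deepest cells 2 were higher and 25 lower. The share of all genes was not taken in that setting, so these counts have no background. The 2 higher genes were Prelp (1.07, 0.51 to 1.63) and Cilp (1.20, 0.26 to 2.12), at 1.19 and 0.42 without the 3 deepest cells. Comp gave -2.85 (-3.74 to -2.08), the fibril-associated collagen Col14a1 -2.01, the fibrillar collagen Col11a1 -1.32 and the proteoglycan lumican (Lum) -1.26. The fibrillar collagens Col1a1, Col1a2 and Col3a1, among the most abundant of the list, gave -0.51, -0.74 and -0.97. The other scalings raise each of these ratios by 0.33 to 0.37. In fibroblast-like cells 3 were higher and 12 lower of 31, beside 13.5% and 15.9% of all genes, with Comp at -3.09, Col14a1 at -1.85 and the immediate early factor Egr1 at -1.79. Decorin was near equal there (-0.12) and -0.87 without the 3 deepest cells.

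With injury in control mice, 21 of 31 measured genes of the wider list were higher (67.7%) and 5 lower (16.1%), beside 52.2% and 11.2% of all genes (median 1.91, against 0.63). With TMM 19 were higher and 5 lower, beside 29.6% and 24.5% of all genes. Periostin (Postn) was higher by 4.93, tenascin C (Tnc) by 4.34 and the collagen crosslinking enzyme Lox by 3.45, all matrix genes of healing tissue, and Dcn was lower (-0.75). In slie/slie mice 11 were higher and 10 lower of 29 (37.9% and 34.5%), beside 16.8% and 26.7% of all genes, and 13 and 8 with TMM. There Postn was at 3.24, Tnc at 2.88, Comp at -3.50 and Dcn at -3.00. Between the uninjured limbs 18 of 27 were higher in slie/slie (66.7%) and 1 lower (3.70%), beside 41.2% and 6.42% of all genes (median 0.96, against 0.44). The counts were 15 and 2 with TMM, beside 20.3% and 14.7% of all genes. Without the 3 deepest cells they were 10 and 3, with no share of all genes taken in that setting.

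Many UMIs of Fmod lay in cells with 2 or more members. In control injured 71 of its 169 UMIs in filtered cells (42.0%) were in those 24 cells, which held 9.67% of the UMIs. In slie/slie injured 28 of 38 (73.7%) were in 8 cells with 18.9% of the UMIs, and in slie/slie uninjured 118 of 137 (86.1%) in 8 cells with 10.6%. A single cell held 30 of the 71, 14 of the 28 and 65 of the 118. Tppp3, a marker of tendon sheath progenitors, was different, with 2 of 60, 2 of 23 and 2 of 87 UMIs in these cells (3.33%, 8.70% and 2.30%). Comp stood between them at 25.7%, 54.5% and 19.6%. Part of such a share comes from the depth of the cells. Cell class also differs: over all barcodes, fibroblast-like cells held 13 of 60 Tppp3 UMIs in control injured. In slie/slie injured they held 9 of 24. The cells with 2 or more members were nearly all fibroblast-like, and the part of cell class in these shares was not tested.

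Within 1 cluster the contrast could be made among cells of like kind. In cluster 2 of control injured, 19 cells held 2 or more members and 71 did not, with medians of 11740 and 4683 UMIs. Of 28 measured genes of the wider list 5 were higher and 1 lower in the 19 cells, beside 14.4% and 13.1% of all 5508 genes measured. Cilp, cartilage intermediate layer protein, was higher by 2.13 (0.86 to 3.54), asporin (Aspn) by 0.96 (0.80 to 1.12) and Fmod by 0.76 (0.28 to 1.25). Of the 68 Fmod UMIs in the 19 cells, 30 were in 1 cell of 53613 UMIs. Ratios without single cells were not taken here. Thbs1 was lower (-0.91, -1.17 to -0.66), and Col1a1 and Comp gave -0.10 and -0.51. Being cells of 1 library, these are no replicates.

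Over 15 populations of a cell class in a library with at least 20 cells, 8 genes of 9345 ranked followed the summed members most closely, by Pearson correlation of log2(CPM + 10). They were Sema3b (0.97), a secreted semaphorin, Fmod (0.94), the proteoglycan osteoglycin (Ogn, 0.92), Abi3bp (0.92), Zfp651 (0.91), Cilp (0.90), Islr (0.89) and the protease Adamts5 (0.88). The populations share libraries and depth, the members' UMIs were confined to a few of them, and the endothelial-like value of slie/slie uninjured (380 CPM) was 1 cell. These correlations describe the populations and carry no test.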

How the data were processed

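Per the file headers, the authors ran Cell Ranger 5.0.1, and the deposited values are UMI counts that were not normalised. The genome build was mm10 per the submitters' processing notes. The sources used here do not give the annotation, the strand setting or the rule for keeping barcodes. The tissue was digested for 20 minutes, per the labels' protocols. Sums over all barcodes had no filter. For cell classes, cells of 200 genes or more whose mitochondrial UMIs were no more than 20% were normalised to 10000 UMIs and clustered without integration (scanpy 1.11.5, 2000 variable genes without the 12 tendon genes among them, 30 components, 15 neighbours, leidenalg 0.10.2 at resolution 1). Clusters were named from fixed marker lists, with thresholds set with earlier results known. Doublets were called with Scrublet (0, 2, 14 and 4 calls in control injured, slie/slie injured, control uninjured and slie/slie uninjured) and kept. The members and lists were chosen with earlier results of these data known.

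Ratios were checked on simulated counts with known answers. With 1 library per group no p-value was computed, and every interval covers counting error only. Intervals of levels and shares are exact. Those of ratios were taken after 1 count was added to each sum, so they are not exact for the observed counts. All 6 genes are named, as are, per comparison, genes of the wider list with most UMIs or the interval farthest from 0, and the 8 genes most like the members. Fmod, Comp and Tppp3 in cells with 2 or more members, and the other genes of single cells, were named after their values were seen. So were Prelp and Cilp in the injured limbs. Alternatives were TMM factors (edgeR 4.0.16, R 4.3.3), median-of-ratios size factors, other filters, cluster resolution and thinning, and leaving out cells.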

Additional observations from a re-analysis of the deposited data

Results flagged for a closer look

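The point values of the change with injury had opposite signs in the 2 genotypes for 3 results. Thbs4 gave a log2 ratio of injured over uninjured of -0.12 in control and 1.32 in slie/slie mice. The control interval (-0.62 to 0.41) includes 0, so Thbs4 had no clear sign there. Kera gave -2.96 in control, from 5 UMIs in each library, and 1.58 in slie/slie mice. Those control counts are too few for Kera to count as measured. The 6 genes together gave -0.20 in control and 0.091 in slie/slie mice, both with intervals that include 0. The difference between the genotypes was not tested, since each group has 1 library. In slie/slie mice the values for Thbs4 and Kera turned below 0 without the cell with most member UMIs in each library, and so did the sum (-0.80, -1.10 to -0.51), which ends its opposite sign. The Thbs4 value in control mice turned to 0.17 in that setting.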

How the results depend on the processing

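For the sum of the 6 genes in injured limbs, slie/slie over control gave 1.33 on the log2 scale over all barcodes. It gave 1.67 without hemoglobin, 1.66 with TMM, 1.70 with size factors, 1.72 in filtered cells, 0.19 with cells weighted equally, 0.11 without the top cell of each library and -0.030 without the 3 deepest cells. In fibroblast-like cells the value of 1.57 became 1.78 without cells under 0.5% mitochondrial UMIs, 1.79 with a marker gate in place of clusters, 0.51 without the top cell, 0.30 thinned to 500 UMIs, 0.0096 with equal weights and -0.11 without the 3 deepest cells. Control injury (-0.20) became -0.65 without hemoglobin, -0.77 with TMM and -0.85 with size factors. It became -1.82 with equal weights, where the shallow control uninjured barcodes (median 101 UMIs) weigh heavily. Slie/slie injury (0.091) became -0.78 with equal weights, -0.80 without the top cell and -1.35 without the 3 deepest cells. Shares with 2 or more members were 7.79% in control and 7.14% in slie/slie injured fibroblast-like cells. They were 12.2% and 17.5% at 500 genes or more, 1.62% and 1.27% thinned to 500 UMIs and 3.28% and 16.7% thinned to 2000 UMIs, and 17.6% in control without cells under 0.5% mitochondrial UMIs. The other 23 of 50 alternative values of these results moved by less than their counting interval.

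For single genes, 130 of 162 alternative values kept within the interval of the value with all cells. The sign changed in 23, of which 15 were values that had not passed 1.5-fold with an interval away from 0 (such as Scx in injured limbs, 0.39 to -0.50 and -0.43, and Mkx, 0.60 to -1.84 and -1.93), and 8 had passed. Those 8 were Tnmd in injured limbs (-0.13), and Thbs4 (-1.06) and Kera (-0.10) in fibroblast-like cells without the 3 deepest cells. Kera in fibroblast-like cells gave -0.51 without the top cell. With injury in slie/slie mice Thbs4 gave -0.37 and Kera -2.16 without the 3 deepest cells, and -0.026 and -2.21 without the top cell. Leaving out the top cell, thinning to 2000 UMIs and other scalings of single genes and of the wider list were chosen after seeing the data. Beyond the cells left out, the cause was not tested. No paired analysis was possible because each comparison has 1 pair of libraries and no shared replicate numbers. A fit of injury over both genotypes, with genotype as a block, was not run. Depth limits Mkx, with at most 11 UMIs in a library, and every gene in control uninjured.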
